A study of Mus musculus with 3 samples.

Results

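Transcripts of 10 transcription factors that hold embryonic stem cells in the pluripotent state were read on 3 Affymetrix arrays: Pou5f1, Nanog, Sox2, Klf2, Klf4, Klf5, Esrrb, Zfp42, Tfcp2l1 and Nr0b1. They were picked by name as core and naive pluripotency factors, with earlier results of these data known. Every probe set that the platform annotation gives to exactly 1 of these symbols was used. That gave 17 probe sets for 10 of the 18193 genes on the arrays. All 10 were measured, which here means an intensity of at least 25.6 (the floor, the 40th percentile of all deposited values) on at least 1 array. The probe set with the highest mean stood for a gene, and 13969 genes in all were measured.

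The cells came from the mouse embryonic stem cell line A2.snail, in which doxycycline turns on Snail, a zinc finger repressor that drives epithelial to mesenchymal transition. All groups had differentiated for 3 days as embryoid bodies, floating cell aggregates, in medium with fetal calf serum and DKK1, a secreted Wnt inhibitor. The Snail-induced Flk1+ array held sorted cells carrying Flk1, the VEGF receptor of early mesoderm encoded by Kdr, where doxycycline (250 ng/mL) had been added on day 2. The Snail-induced Flk1- array held cells that lacked Flk1 after the same treatment, and the untreated Flk1- array held Flk1- cells grown without doxycycline (0 ng/mL). With 1 array a group, nothing measures the spread between cultures, so differences are described by their size alone, without a replicate check or a p-value. Neither untreated Flk1+ cells nor doxycycline-treated cells without inducible Snail were analysed here, so doxycycline and Snail cannot be told apart, nor can induction and the Flk1 gate in Flk1+ against untreated cells.

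In mouse embryonic stem cells, Oct4 (encoded by Pou5f1) and Sox2 bind DNA side by side and switch on many genes of the pluripotent state, among them Nanog and their own. Around this core stands a set of naive factors: LIF acting through Stat3 feeds Klf4 and Tfcp2l1, and Esrrb, Klf2, Klf5, Nr0b1 and Zfp42 (also called Rex1) mark or support the state that resembles the preimplantation epiblast. In the embryo the naive factors are turned down as the epiblast implants while Pou5f1 stays on, and Pou5f1 is turned down later, during gastrulation.

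Promoters are shown for 4 of the genes, chosen because the arrays separate them: in Flk1+ against untreated cells Nanog and Tfcp2l1 were the furthest down along with Nr0b1, Pou5f1 was less so, and Klf4 was not lower. Each stretch is the 250 bases before an annotated start in RefSeq on GRCm38.p6, read along the gene, and the first start by coordinate was taken where a gene has several. Promoter entries matched 9 of the 10 genes, all but Klf5. Capitals mark, on either strand, an Oct-Sox composite (CATTGT, any 1 base, then ATGCAAA), an E-box of the kind Snail binds (CAGGTG) or a GC box (GGGCGGG), the kind of site that Klf and Sp factors bind.
Nanog, chr6:122707239-122707488, plus strand: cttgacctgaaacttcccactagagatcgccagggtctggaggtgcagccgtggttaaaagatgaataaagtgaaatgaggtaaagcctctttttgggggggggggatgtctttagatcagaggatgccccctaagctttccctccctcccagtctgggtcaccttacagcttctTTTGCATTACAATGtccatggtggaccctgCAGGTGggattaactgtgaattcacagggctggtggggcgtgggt
Tfcp2l1, chr1:118627695-118627944, plus strand: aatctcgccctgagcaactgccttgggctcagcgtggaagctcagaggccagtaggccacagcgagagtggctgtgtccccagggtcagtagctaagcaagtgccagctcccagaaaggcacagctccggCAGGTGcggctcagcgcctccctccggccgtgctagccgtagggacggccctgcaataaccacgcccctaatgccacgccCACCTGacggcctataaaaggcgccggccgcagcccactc
Pou5f1, chr17:35505782-35506031, plus strand: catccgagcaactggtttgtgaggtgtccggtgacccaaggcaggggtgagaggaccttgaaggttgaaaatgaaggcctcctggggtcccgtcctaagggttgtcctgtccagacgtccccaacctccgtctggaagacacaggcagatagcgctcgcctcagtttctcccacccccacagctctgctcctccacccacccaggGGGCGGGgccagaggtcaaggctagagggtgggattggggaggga
Klf4, chr4:55532476-55532725, minus strand: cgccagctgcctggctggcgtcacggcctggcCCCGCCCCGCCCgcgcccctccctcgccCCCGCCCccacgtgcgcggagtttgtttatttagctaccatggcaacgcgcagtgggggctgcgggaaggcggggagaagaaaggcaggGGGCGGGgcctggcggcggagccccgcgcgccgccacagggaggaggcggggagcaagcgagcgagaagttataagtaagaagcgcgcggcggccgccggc

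The Oct-Sox composite of the Nanog promoter, a pair of adjoining Oct4 and Sox2 sites, began 75 bases before the start, and the CAGGTG lay between it and the start, at 45 bases. Among 32851 promoter windows of the same length, 2 (0.00609%) held the composite letters, and both were overlapping windows of Nanog. CAGGTG or its complement was found in windows of Nanog, Tfcp2l1 and Zfp42, which is 3 of 9 genes, against 19.4% of the 27025 genes with a window. By windows it was 4 of the factors' 12, against 17.2% of all windows, but the 2 overlapping Nanog windows share the same CAGGTG. Tfcp2l1 held it at 120 and again at 40 bases before the start. The GC box was in windows of 5 of the 9 genes (Klf2, Klf4, Pou5f1, Sox2 and Zfp42), against 25.7% of all genes, and in 5 of the 12 windows, against 23.4% of all windows. The matches at 218 and 213 bases before the Klf4 start overlap. The octamer ATGCAAAT, which shares 7 letters with the composite, was in 1 of the 12 windows, that of Zfp42, and in 1.6% of all windows. The STAT site TTCNNNGAA was in 1 of the 12 windows, that of an Esrrb start, against 7.02% of all windows, and AAGGTCA, the site bound by estrogen-related receptors, was in 0 of the 12 windows against 4.08% of all windows. Nr0b1, which was also among the furthest down and is not printed, had no match to any of these motifs. Any relation between the motifs and the factors' differences was not tested. These matches describe letters in a short window and do not show binding.

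Median intensities were 44.6 on the Snail-induced Flk1+ array, 42.4 on the Snail-induced Flk1- array and 42.7 on the untreated Flk1- array. Kdr gave 404 on the Snail-induced Flk1+ array, against 9.73 on the Snail-induced Flk1- array and 10.5 on the untreated Flk1- array, the order that the sort labels give. The only Snai1 probe set gave 19.8, 13.1 and 29.1 on the same arrays in that order, near or under the floor, so it checks nothing about induction. Differences below are log2 differences of intensity plus an offset of 9.53, folds are taken on that scale, and a gene past 2-fold differs by at least that much on it. Genes are counted on that scale also where a value lies under the floor, and their bound can then be under 2-fold. Intensities of different probe sets are not comparable as levels, so genes are compared by their differences between arrays.

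Among cells lacking Flk1, all 10 factors stayed within 2-fold between the Snail-induced and the untreated array. Of them, 0 were past 2-fold in either direction in Snail-induced Flk1- against untreated Flk1- cells, where 2.95% of all 13969 measured genes were past 2-fold on the higher side and 2.03% on the lower side. At such shares a count of 0 among 10 is near the background. The differences ran between -0.16 (Nanog) and 0.70 (Klf4), with a median of 0.22 against 0.04 for all measured genes. They were above 0 for 8 genes and below 0 for Nanog and Esrrb. The largest, that of Klf4, was 1.62-fold higher in Snail-induced Flk1- cells.

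Flk1+ cells of the induced culture differed more. Compared with Snail-induced Flk1- cells, 7 of the 10 factors were past 2-fold on the lower side and 0 on the higher side, where 4.89% of all measured genes were past it on the lower and 4.85% on the higher side. The median difference was -1.65, against 0.00 for all measured genes. Compared with untreated Flk1- cells, again 7 were past 2-fold lower and 0 higher, where 6.41% of all measured genes were past it on the lower and 8.1% on the higher side, and the median was -1.42 against 0.01. The last comparison is the sum of the other 2 on the log scale, and each pair of comparisons shares an array, so they are given side by side and do not support each other. In such sorted populations, fewer cells carrying a transcript and less of it per cell cannot be told apart.

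**Figure D1:**
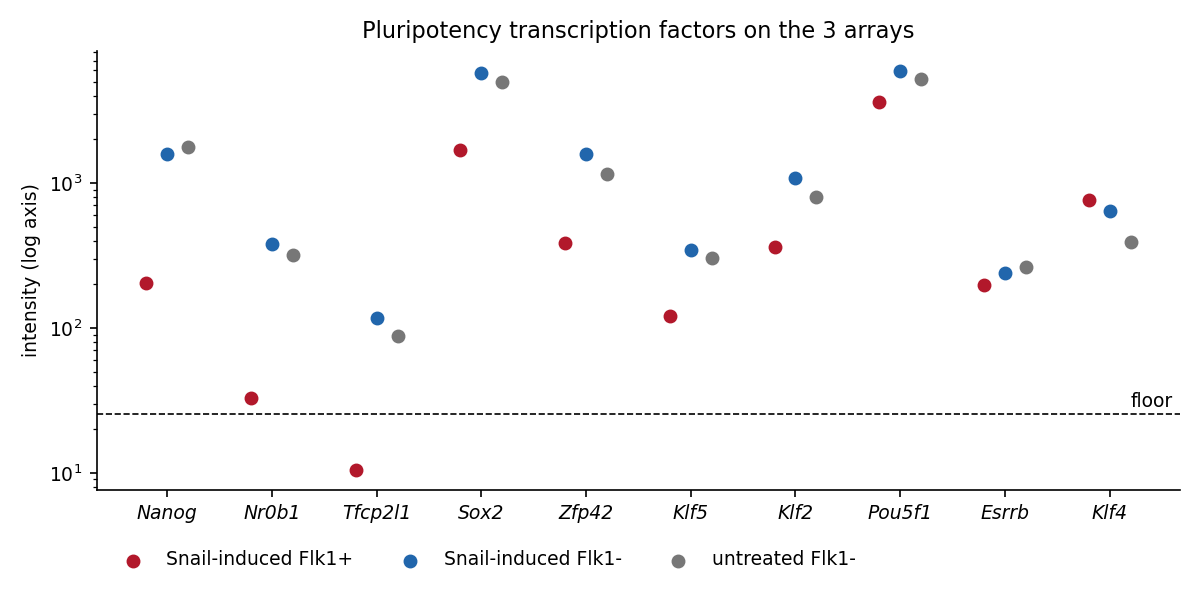
Intensity (log axis) of the probe set that stands for each of the 10 factors on the Snail-induced Flk1+ (red), Snail-induced Flk1- (blue) and untreated Flk1- (grey) array, 1 point an array, genes ordered by their Flk1+ against untreated difference. The red point is the lowest of the 3 for every gene but Klf4, where it is the highest at 765, and only Tfcp2l1 in Flk1+ cells (10.5) lies under the dashed floor at 25.6.

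The core factors separated from each other. Pou5f1, whose product Oct4 is required to keep cells pluripotent, gave 3607 in Snail-induced Flk1+ cells, 5963 in Snail-induced Flk1- cells and 5224 in untreated Flk1- cells. All arrays stayed bright, and the Flk1+ value was the lowest. It was 1.65-fold lower than in Snail-induced Flk1- cells and 1.45-fold lower than in untreated cells, under the 2-fold rule in both.

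Sox2, the HMG box partner of Oct4, gave 1683 in Snail-induced Flk1+ cells, 5709 in Snail-induced Flk1- cells and 5023 in untreated Flk1- cells. It stood clearly lower in Flk1+ cells, by 3.38-fold against Snail-induced Flk1- cells and 2.97-fold against untreated cells, and the Flk1- arrays lay 1.14-fold apart. Sox2 lies inside the transcription unit of the noncoding gene Sox2ot, whose own probe set was under the floor on all 3 arrays (8.17, 17.7 and 17.3 in the same order). As Sox2 is also a gene of neural progenitors, those markers were read beside it. The summed intensity of all 7 listed was 793 in Snail-induced Flk1+, 1291 in Snail-induced Flk1- and 1594 in untreated Flk1- cells. Of 6 measured neural markers, 2 were past 2-fold lower in Flk1+ than in Snail-induced Flk1- cells and 0 higher (all measured genes: 4.89% lower). These were Sox1 with 135 against 403 and Neurod1 with 21.0, under the floor, against 65.3, at least 2.55-fold. The difference was above 0 for 2 of the 6, Hes5 (0.30) and Pou3f2 (0.61), and Olig2 was under the floor on every array. Their part in the Sox2 difference was not tested.

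Nanog, the homeobox factor that guards against exit from the naive state, gave 203 in Snail-induced Flk1+ cells, 1584 in Snail-induced Flk1- cells and 1767 in untreated Flk1- cells. The Flk1+ reading was 12.8% of the Snail-induced Flk1- reading and 11.5% of the untreated one, still above the floor. On the offset scale this was 7.51-fold and 8.37-fold lower, and 19 of the 13969 measured genes had a lower difference in Flk1+ against Snail-induced Flk1- cells. Within Flk1- cells Nanog was 1.12-fold lower with induction. The Oct-Sox composite printed above lies in the promoter of this gene, and its part in the difference was not tested.

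Among the naive factors, Nr0b1 and Tfcp2l1 were also far lower in Flk1+ cells, Tfcp2l1 by a bound. Nr0b1, which encodes the orphan nuclear receptor Dax1, gave 32.8 in Snail-induced Flk1+ cells, 382 in Snail-induced Flk1- cells and 321 in untreated Flk1- cells. Its Flk1+ reading was just above the floor, 9.24-fold lower than in Snail-induced Flk1- cells and 7.8-fold lower than in untreated cells, and 7 measured genes had a lower difference in the first of these comparisons.

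Tfcp2l1, a grainyhead-family factor downstream of LIF and Stat3, gave 10.5 in Snail-induced Flk1+ cells, 117 in Snail-induced Flk1- cells and 87.8 in untreated Flk1- cells. Because the Flk1+ reading lay under the floor only bounds can be given: at least 4.56-fold lower than in Snail-induced Flk1- cells and at least 3.43-fold lower than in untreated cells. The other 2 Tfcp2l1 probe sets were under the floor on every array (3.38 to 13.6) and read nothing.

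Zfp42, a zinc finger gene used as a reporter of the naive state, gave 383 in Snail-induced Flk1+ cells, 1574 in Snail-induced Flk1- cells and 1152 in untreated Flk1- cells. It was lowest in Flk1+ and highest in Snail-induced Flk1- cells. The Flk1+ value was 4.03-fold lower than in Snail-induced Flk1- cells and 2.96-fold lower than in untreated cells, and the Snail-induced Flk1- value was 1.36-fold higher than the untreated one.

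The 3 Kruppel-like factors, which can stand in for one another in embryonic stem cells, differed from each other. Klf2 gave 364 in Snail-induced Flk1+ cells, 1082 in Snail-induced Flk1- cells and 796 in untreated Flk1- cells. It was 2.92-fold lower in Flk1+ than in Snail-induced Flk1- cells and 2.16-fold lower than in untreated cells, the smallest difference past 2-fold against untreated cells.

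Klf4 went the other way, with 765 in Snail-induced Flk1+ cells, 639 in Snail-induced Flk1- cells and 391 in untreated Flk1- cells. Its second probe set gave 500, 396 and 291 in the same order, so both readings were highest in Flk1+ and lowest in untreated cells. The brighter probe set was 1.94-fold and the second 1.7-fold higher in Flk1+ than in untreated cells, just short of 2-fold, and 1.19-fold and 1.26-fold higher than in Snail-induced Flk1- cells. Klf4 is also a gene of endothelial cells, and their markers were read beside it. Of 13, 13 were past 2-fold higher in Flk1+ than in Snail-induced Flk1- cells (4.85% of all measured genes), among them Kdr, on which the cells were sorted, and Tie1, whose 42.8 against 2.52 gives only at least 1.67-fold. Their summed intensities were 13257 in Snail-induced Flk1+, 1311 in Snail-induced Flk1- and 815 in untreated Flk1- cells. Their median difference was 3.65 between Flk1+ and Snail-induced Flk1- cells, where Klf4 had 0.26, and -0.01 between Snail-induced and untreated Flk1- cells, where Klf4 had 0.70. Their part in the Klf4 difference was not tested.

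Klf5 gave 120 in Snail-induced Flk1+ cells, 344 in Snail-induced Flk1- cells and 303 in untreated Flk1- cells by its brightest probe set, 2.72-fold and 2.41-fold lower in Flk1+ cells. Its second probe set did not show this, with 70.5, 73.6 and 77.7 in the same order, and the third was under the floor on every array. The Klf5 difference rests on 1 of 2 measured probe sets.

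Esrrb, an orphan nuclear receptor that activates naive genes, also depended on the probe set. The brightest, whose suffix marks probes that may match other transcripts, gave 197 in Snail-induced Flk1+ cells, 238 in Snail-induced Flk1- cells and 264 in untreated Flk1- cells, which is 1.2-fold and 1.32-fold lower in Flk1+ cells. The second, without that suffix, gave 60.8, 247 and 212 in the same order, which is 3.65-fold and 3.14-fold lower. The third gave 16.3, 26.0 and 15.6 and reached the floor on 1 array. With probe sets ending in _s_at or _x_at left out for all genes, 8 of 10 factors were at least 2-fold lower in Flk1+ than in Snail-induced Flk1- cells. The count was the same against untreated cells. This rule keeps the brightest Klf5 probe set, which ends in _a_at, so Klf5 is among the 8 by that probe set.

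**Figure D2:**
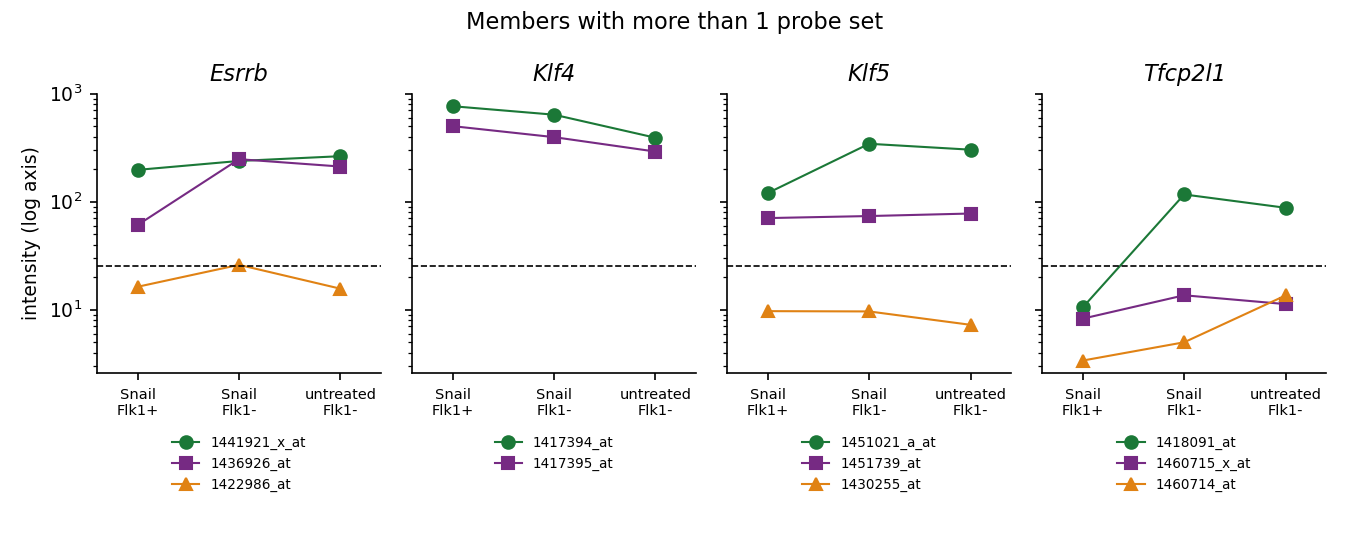
Intensity (log axis) of each probe set of Esrrb, Klf4, Klf5 and Tfcp2l1 on the 3 arrays, with lines joining the readings of 1 probe set and the dashed line at the floor of 25.6. The 2 Klf4 probe sets run together, the Esrrb probe sets above the floor part in Flk1+ cells, at 197 and 60.8, and the second Klf5 probe set stays between 70.5 and 77.7 on all 3 arrays.

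All cells were taken on 1 day, so the arrays give sizes and no order in time. By the share of the untreated Flk1- intensity found in Snail-induced Flk1+ cells, 3 tiers can be described. Nr0b1 stood at 10.2% and Nanog at 11.5%, and Tfcp2l1 read 12.0%, of which only a bound of 29.1%, the floor as a share of its untreated reading, is measured. In the middle lay Zfp42 at 33.3%, Sox2 at 33.5%, Klf5 at 39.6% and Klf2 at 45.7%. Pou5f1 at 69.1%, Esrrb at 74.7% by its brightest probe set and Klf4 at 196% made up the last tier. By their second probe sets Esrrb stood at 28.7% and Klf5 at 90.7%, which would place both in other tiers.

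The same shares in Snail-induced Flk1- cells ran from 89.6% (Nanog) to 163% (Klf4), with no gene under 50%. Of the 45 pairs that the 10 factors form, 34 kept their order in the Flk1+ against untreated difference under all 9 ways of processing that gave all 10 genes, and 11 turned under at least 1. These 9 ways include the main one. Centring each array on its median or moving the floor cannot turn a pair, so fewer than 9 put the order to a test. The choice of probe set cannot change the 6 factors that have only 1. Klf4 was the highest in all 9, and Nanog or Nr0b1 was the lowest. Of the 11 pairs that turned, 5 involved Esrrb. Nanog and Nr0b1, Sox2 and Zfp42, Klf2 and Klf5, and Pou5f1 and Klf5 were among the others, as was Tfcp2l1 with either Sox2 or Zfp42. Esrrb took ranks 4 to 9 and Klf5 ranks 6 to 9 over these ways, so neither the order within a tier nor the borders of the tiers are settled.

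**Figure D3:**
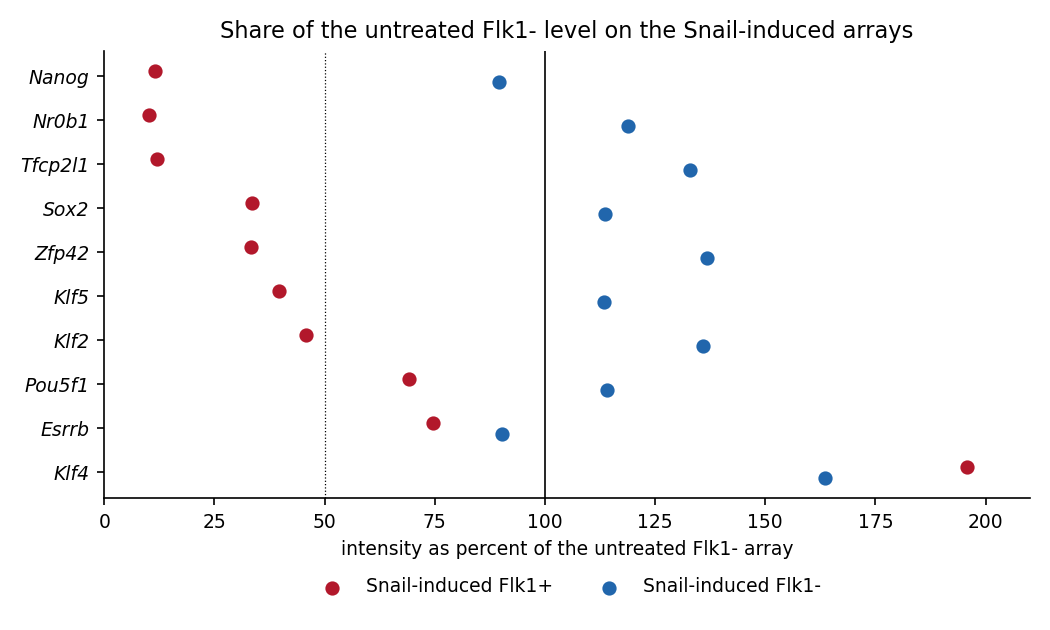
Intensity of each factor as a percent of its untreated Flk1- reading, in Snail-induced Flk1+ (red) and Snail-induced Flk1- (blue) cells, 1 array each, with lines at 100% and 50%. Red points run from 10.2% (Nr0b1) to 196% (Klf4) and blue points from 89.6% to 163%; the red point of Tfcp2l1 rests on a reading under the floor.

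**Figure D4:**
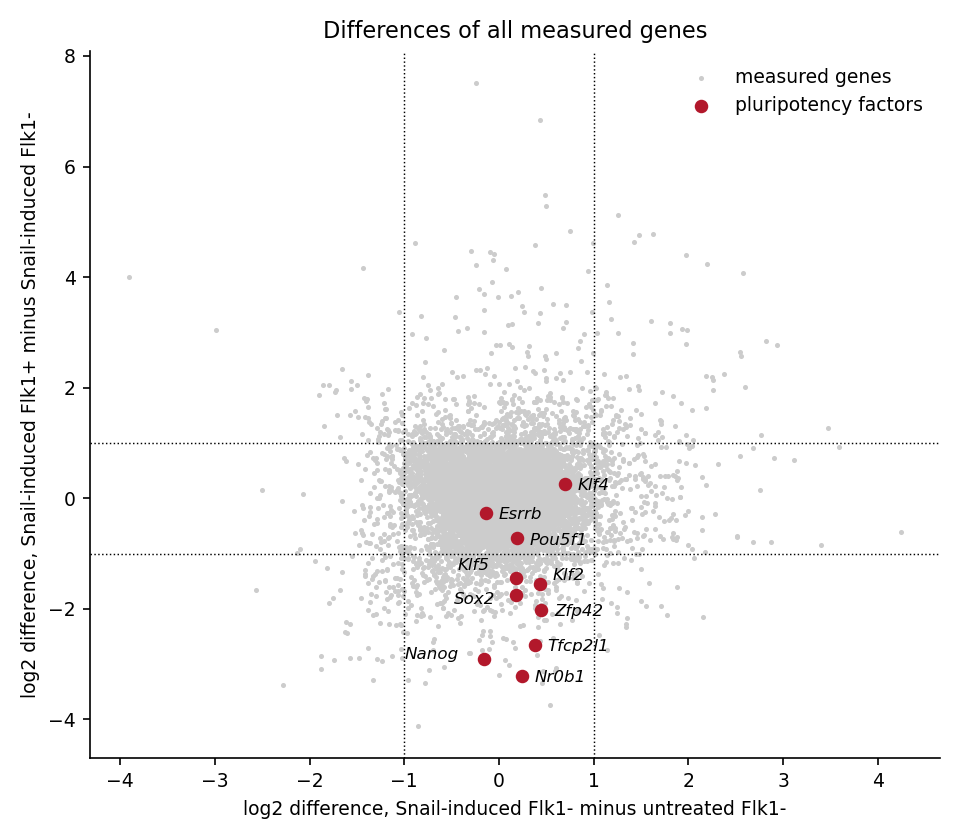
Each of 13969 measured genes (grey) and the 10 factors (red) by the log2 difference of Snail-induced Flk1- minus untreated Flk1- cells (horizontal) and of Snail-induced Flk1+ minus Snail-induced Flk1- cells (vertical), dotted lines at 2-fold. The factors lie in the narrow band between -0.16 and 0.70 on the horizontal axis and spread from -3.21 to 0.26 on the vertical axis; the 2 axes share the Snail-induced Flk1- array.

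The genes around these factors were read from lists that do not hold the 10 factors, also chosen with earlier results of these data known. Of 23 measured pluripotency targets and markers, 11 were past 2-fold lower and 1 higher in Flk1+ than in Snail-induced Flk1- cells, with a median of -0.98, where 4.89% of all measured genes were lower and 4.85% higher. Against untreated cells 11 were lower and 2 higher, Tet2 and Dppa2, where 6.41% and 8.1% of all measured genes were. The difference from Snail-induced Flk1- cells was above 0 for 4 of the 23. Eras, a Ras of embryonic stem cells, had a difference of -4.11, and Fbxo15, an F-box gene controlled by Oct4 and Sox2, gave 50.6 in Flk1+ and 599 in Snail-induced Flk1- cells. Tcl1, a cofactor of Akt, gave 58.2 in Flk1+ and 397 in Snail-induced Flk1- cells. The 1 past 2-fold higher was Tet2, which oxidises methylated DNA, with 300 in Flk1+ against 100 in Snail-induced Flk1- cells. Dppa2, a SAP domain gene of pluripotent cells, gave 3588 in Snail-induced Flk1+, 2320 in Snail-induced Flk1- and 1450 in untreated Flk1- cells. Tdgf1, a Nodal co-receptor gene, differed little, with 6488 in Flk1+, 6683 in Snail-induced Flk1- and 6312 in untreated Flk1- cells.

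The formative and primed epiblast genes, which come on as naive factors are lost, were not past 2-fold higher. Of 14 measured, 8 were past 2-fold lower and 0 higher in Flk1+ than in Snail-induced Flk1- cells, and 10 were lower and 0 higher than in untreated cells, with medians of -1.40 and -1.53. The lower share among all measured genes was 4.89% in the first comparison and 6.41% in the second, and the higher share was 4.85% and 8.1%. At such higher shares a count of 0 among 14 is near the background. Pim2, a kinase gene, gave 508 in Snail-induced Flk1+, 3603 in Snail-induced Flk1- and 4492 in untreated Flk1- cells. Foxd3, a forkhead factor, gave 99.8, 656 and 592 in the same order, and Dnmt3a, a DNA methyltransferase, was a member with a difference above 0 (0.46 against Snail-induced Flk1- cells). Among Flk1- cells 1 of the 14, Fgf5, was past 2-fold lower with induction (2.03% of all measured genes).

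Partner factors of the network were past 2-fold in both directions. Of 22 measured, 15 stayed within 2-fold, 4 were past 2-fold lower and 3 higher in Flk1+ than in Snail-induced Flk1- cells, with a median of -0.33, where 4.89% of all measured genes were lower and 4.85% higher. Prdm14, which represses DNA methylation and FGF signalling in the naive state, gave 3.46 in Flk1+ against 53.7 in Snail-induced Flk1- cells, at least 2.1-fold lower. Zfp296 (24.3 against 77.4, at least 3.03-fold), Zscan10 (455 against 1017) and Mybl2 (319 against 681) were the other lower ones. Stat3 (1087 against 432), which the LIF pathway list also holds, the BMP mediator Smad1 (1545 against 744) and the T-box factor Tbx3 (35.6 against 9.97, which gives only at least 1.39-fold) were the higher ones. Sall4, a zinc finger partner of Oct4, gave 2748 in Snail-induced Flk1+, 4447 in Snail-induced Flk1- and 3951 in untreated Flk1- cells, a difference of -0.69 that is close to the -0.72 of Pou5f1.

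The LIF receptor pathway is the input that feeds Klf4 and Tfcp2l1 in mouse embryonic stem cells. Of its 9 measured genes, 4 were past 2-fold higher and 0 lower in Flk1+ than in Snail-induced Flk1- cells, and 6 were higher and 0 lower than in untreated cells, with medians of 0.89 and 1.47. The higher share among all measured genes was 4.85% in the first comparison and 8.1% in the second. The difference was above 0 for all 9 in both comparisons. Lifr, the LIF receptor subunit, gave 3464 in Snail-induced Flk1+, 1408 in Snail-induced Flk1- and 632 in untreated Flk1- cells. Socs3, a feedback inhibitor and Stat3 target, gave 1412, 647 and 274 in the same order. Stat3 gave 1087, 432 and 220, and Jak1, the kinase bound to the receptor, gave 1823, 885 and 651. Both Lifr and Socs3 were also at least 2-fold higher in Snail-induced than in untreated Flk1- cells, the only 2 of the 9 (2.95% of all measured genes). The pathway genes and Klf4 were thus highest on the Flk1+ array, and Tfcp2l1 was lowest there; signalling itself was not measured.

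**Figure D5:**
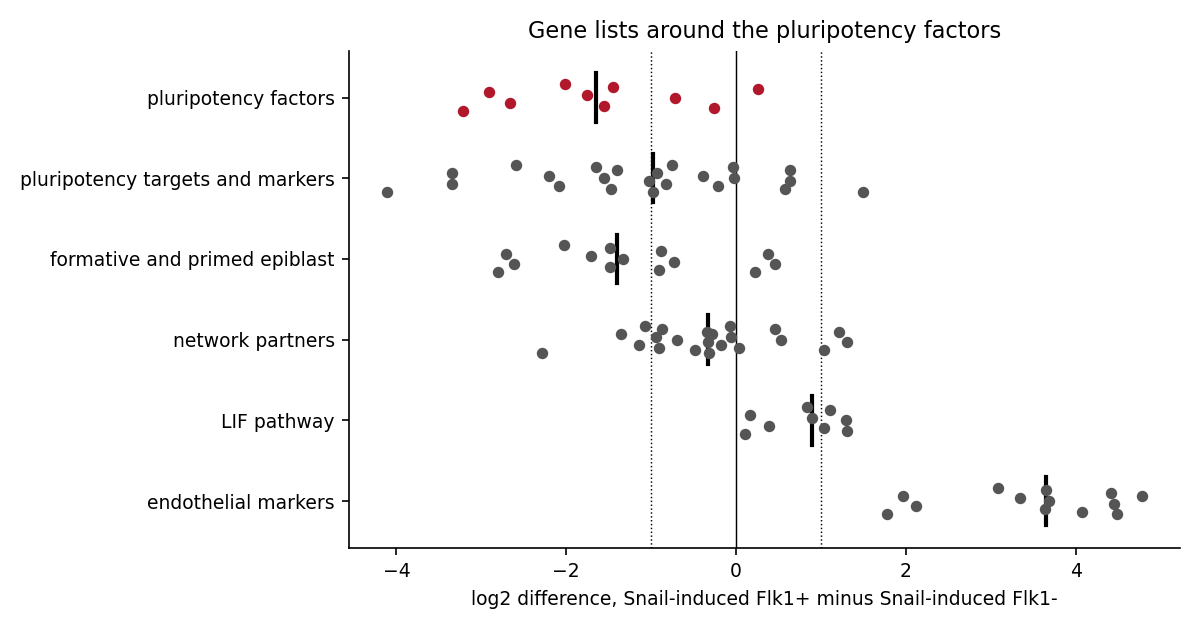
Log2 difference of Snail-induced Flk1+ minus Snail-induced Flk1- cells for the 10 factors (red) and the measured genes of 5 lists (grey), 1 point a gene, black bars at each median and dotted lines at 2-fold; vertical scatter within a list has no meaning. The factors (median -1.65), targets (-0.98) and epiblast genes (-1.40) lie mostly left of 0, and LIF pathway (0.89) and endothelial genes (3.65) lie right of it.

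Other cell types that use some of these factors were checked by their markers. Beside each count below stand the background shares given above, 4.89% lower and 4.85% higher for Flk1+ against Snail-induced Flk1- cells. Of 8 measured germ cell markers, 2 (Prdm14 and Tfap2c) were past 2-fold lower and 1 (Kit) higher in Flk1+ than in Snail-induced Flk1- cells, and the difference was below 0 for 5. Their summed intensities were 2238 in Snail-induced Flk1+, 2095 in Snail-induced Flk1- and 1676 in untreated Flk1- cells, of which Ddx4 alone made up 1438, 1269 and 872.

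Of 6 measured trophoblast markers, 1 (Tfap2c, 97.6 in Flk1+ against 315 in Snail-induced Flk1- cells) was past 2-fold lower and 1 (Gata3, 197 against 16.3, at least 7.7-fold) higher. All 8 listed trophoblast markers summed to 536 in Snail-induced Flk1+, 631 in Snail-induced Flk1- and 601 in untreated Flk1- cells. This sum includes the defining genes Cdx2 and Elf5, which were under the floor on every array. Of 5 measured extraembryonic endoderm markers, 3 (Sox17, Sox7 and Gata6) were past 2-fold higher and 0 lower in Flk1+ than in Snail-induced Flk1- cells. Against untreated cells 4 were higher, Dab2 being the other, and 0 lower, where 8.1% of all measured genes were higher. All 8 listed endoderm markers summed to 3616 in Snail-induced Flk1+, 714 in Snail-induced Flk1- and 480 in untreated Flk1- cells. That sum includes Foxa2, Afp and Ttr, which were under the floor on every array. Sox17 gave 1466 in Snail-induced Flk1+, 96.2 in Snail-induced Flk1- and 68.3 in untreated Flk1- cells; endothelial precursors also express Sox17 and Sox7.

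Of 6 measured feeder fibroblast markers, 2 (Dcn, 58.6 against 276, and Lum, under the floor in both) were past 2-fold lower and 0 higher in Flk1+ than in Snail-induced Flk1- cells. In Snail-induced against untreated Flk1- cells 3 were higher, Dcn by 2.37-fold, Pdgfrb by 2.64-fold and Col3a1 by at least 4.77-fold, and 0 lower, where 2.95% of all measured genes were higher. All 8 listed feeder markers summed to 671 in Snail-induced Flk1+, 893 in Snail-induced Flk1- and 479 in untreated Flk1- cells. That sum includes Col1a1 and Postn, which were under the floor on every array. What part any of these had in the factors' differences was not tested.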

How the data were processed

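RNA of sorted A2.snail progeny at day 3 was measured on 3 arrays, 1 for each group. Per the labels' protocols, total RNA was column-purified and 2 ug went into biotinylated cRNA by the standard Affymetrix procedure. The authors deposited linear intensities, 1 for each probe set on each array; the probe summary, scaling and software used: not given in the sources used here. Probe sets (45037) took gene names from the platform annotation, brought up to date through Entrez IDs in RefSeq (GRCm38.p6): 34945 had 1 symbol and were used, 932 had several and 9160 none.

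Values were turned into log2(intensity + 9.53), the offset being the 20th percentile, which understates differences of dim genes. No further scaling was applied. Each gene took its probe set with the highest mean on this scale, and the floor was the 40th percentile, 25.6. Where a fold involves a value under the floor, the bright value over the floor is stated as a bound. Differences of at least 2-fold on the offset scale were counted, also where a value was under the floor, with no test and beside percentages over all 13969 measured genes; the number of arrays limits the precision. The counting was checked on simulated rises of bright genes, which does not cover losses or readings near the floor.

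The 10 factors and the 11 gene lists were chosen with earlier results of these data known. Genes named were the 10 factors, Kdr and Snai1, up to 4 genes of a list with the largest difference and up to 2 that went the other way, and the 3 nearest genes of 4 factors; Sall4, Tdgf1, Zscan10, Mybl2, Smad1, Yy1, Tfcp2, Sox2ot, Tie1, Dppa2, Ddx4 and the markers named for other cell types were picked after their values were seen. Alternatives covered scaling, the probe set, floor, offset and threshold. Analyses used Python 3.11.15, pandas 2.3.3 and NumPy 2.4.6.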

Additional observations from a re-analysis of the deposited data

How the results depend on the processing

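Within Flk1- cells 0 factors passed 2-fold under every alternative with that threshold, out of 10, or out of 3 with the second brightest probe set. At 1.5-fold 1 (Klf4) passed. Moving or dropping the floor changed none of the factors' values. In Flk1+ against Snail-induced Flk1- cells the count of 7 lay between 6 (mean of all probe sets) and 8, and was 5 at 3-fold. The 8 came with probe sets ending in _s_at or _x_at left out, or at 1.5-fold. Against untreated cells the count was 3 at 3-fold. The second brightest measured probe set exists for only 3 of the factors (Klf4, Klf5 and Esrrb); there 1 was past 2-fold in each Flk1+ comparison, with medians of -0.06 against Snail-induced Flk1- and -0.12 against untreated cells. Of 249 single-gene values under alternatives, 17 moved by over 0.58 on the log2 scale, all from Klf5, Esrrb, Tfcp2l1 or Nr0b1, and none past 2-fold turned sign. Tfcp2l1 in Flk1+ cells is a reading under the floor: its difference from Snail-induced Flk1- cells was -3.47 with no offset and -1.46 with an offset of 50. No paired analysis was possible because each group has 1 array.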

Other observations

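The close relatives of the factors were read as well. Of 23 measured paralogs, 5 were past 2-fold lower and 2 higher in Snail-induced Flk1+ than in Snail-induced Flk1- cells, with a median of -0.01, where 4.89% and 4.85% of all measured genes were. Klf15, a Kruppel-like factor of metabolic tissues, gave 52.7 in Flk1+ against 198 in Snail-induced Flk1- cells. Pou3f1, a POU factor of the primed epiblast and glia, gave 780 against 2576, and the SoxB1 genes Sox1 (135 against 403) and Sox3 (145 against 421) were lower along with Sox2. Klf3 (1840 against 769) and Klf7 (732 against 361) were the higher ones. Yy1, a relative of Zfp42, gave 3860 against 3706, and Tfcp2, a relative of Tfcp2l1, gave 445 against 407.

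The genes nearest to 4 of the factors were found by the distance between their pairs of log2 differences (Snail-induced Flk1- minus untreated Flk1-, and Snail-induced Flk1+ minus Snail-induced Flk1-), over 3 arrays and 10311 candidates. For Nanog these were the metallothionein gene Mt2 at 0.063, Ptk2b at 0.164 and Lypd6 at 0.184. Mt2 gave 185 in Snail-induced Flk1+, 1386 in Snail-induced Flk1- and 1553 in untreated Flk1- cells. The nearest to Sox2 was Pou3f1 at 0.056, followed by Pdgfa at 0.071 and Phlda2 at 0.122. Pou5f1 had Akap17b at 0.011, Mirg at 0.018 and Rpia at 0.019, and Zfp42 had Gli2 at 0.077, Mest at 0.082 and Acss1 at 0.105. With 3 arrays many genes lie close to any point, so nearness is a description.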
